A study of Mus musculus with 6 samples.

Results

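The mitochondrial ribosomal protein genes of the mouse were read from total RNA of Top3b-KO and WT splenocytes. They were taken as every symbol of the deposited count table that begins with Mrpl or Mrps, followed by a number and at most 1 further letter, which gave 78 of the 56413 symbols. The cells were fresh splenocytes, the mixed cells of a mouse spleen. The labels give 3 libraries of genotype Top3b-KO, a knockout of the topoisomerase III-beta gene Top3b, and 3 libraries of wild-type genotype (WT). No treatment, time course, strain, age or knockout allele is given in the sources used here, and the labels do not say whether libraries of a genotype came from separate animals or pooled cells. The p-values therefore measure the spread between these libraries, which may be technical. The study was built to ask what Top3b, an enzyme that relaxes DNA and acts on RNA, does for transcription and R-loops in the spleen.

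Mitochondria keep their own ribosomes, the mitoribosomes, which translate only the few respiratory chain subunits encoded in mitochondrial DNA. The RNA of the mitoribosome comes from the mitochondrial genome, whereas its proteins are encoded in the nucleus, made in the cytosol and imported, so that the nucleus and the mitochondrion each supply a part of the same particle. Some of its proteins have relatives in the bacterial ribosome and the others were added during the evolution of mitochondria. In the spleen, lymphocytes increase mitochondrial translation when they are activated. By the uniform nomenclature, 26 of the 78 genes encode small-subunit proteins and 51 encode large-subunit proteins. Mrps30 (uniform name mL65) and Mrps18a (mL66) carry small-subunit symbols and belong to the large subunit. Mrps36 is counted among neither, since its product is a component of the α-ketoglutarate dehydrogenase complex. The proteins Dap3, Chchd1, Aurkaip1, Ptcd3 and Gadd45gip1 also sit in the mitoribosome under other names and are described apart from the 78.

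The start regions of the 78 genes, which are scattered over the genome, were compared in sequence. RefSeq promoter windows of 300 bases (250 before to 50 after the transcription start, build GRCm38.p6) were at hand for 69 of the 78 genes, in 75 windows. The 5 short motifs searched on both strands were GCGCA and GCGC separated by any base for NRF1, CCGGAAG for the ETS factor GABPA, AANATGGC for YY1, CACGTG for the E-box bound by MYC, and TATAAA for the TATA box. NRF1, GABPA and YY1 are transcription factors known for nuclear genes of mitochondrial function. The ETS letters were in 34.7% of the 75 windows, against 11.6% of 21262 windows of protein-coding genes and 8.86% of all 32851 windows. The YY1 letters were in 28.0% of the windows, against 6.37% of coding and 6.05% of all windows. The NRF1 letters were in 17.3%, against 6.38% of coding and 4.60% of all windows. The E-box was in 9.33%, against 7.84% of coding and 7.15% of all windows. Its 7 windows came from 5 of the 69 genes, and 3 of them belonged to Mrpl2 alone, so the windows are not independent. The TATA letters were in 6.67% of the windows, against 12.6% of coding and 13.6% of all windows. These are shares of matching letters with no test, and a match is not a binding site. The median GC content was 58.7% in the 75 windows, 56.3% in coding and 52.7% in all windows. The coding and all windows were not limited to genes counted in these libraries. The part of either in the motif shares was not tested.

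The stretches below run from 100 bases before to 30 bases after the start and are shown in lower case, 5′ to 3′ on the gene's strand, with motif matches in capitals. The first 4 belong to genes with the smallest p-values in the genotype comparison, namely Mrpl28 at chr17:26123403-26123532 on the plus strand, Mrpl52 at chr14:54426809-54426938 on the plus strand, Mrpl14 at chr17:45686249-45686378 on the plus strand and Mrps7 at chr11:115604040-115604169 on the plus strand. The others belong to genes of high or even level, namely Mrps21 at chr3:95871485-95871614 on the minus strand, Mrpl33 at chr5:31613851-31613980 on the plus strand, Mrpl51 at chr6:125192100-125192229 on the plus strand and Mrpl9 at chr3:94443236-94443365 on the plus strand. Mrps21 was also among the genes of small p-value, lower in Top3b-KO without overlap, so it is no contrast to the first 4. All coordinates are of GRCm38.p6 and the sequences are RefSeq's.
Mrpl28: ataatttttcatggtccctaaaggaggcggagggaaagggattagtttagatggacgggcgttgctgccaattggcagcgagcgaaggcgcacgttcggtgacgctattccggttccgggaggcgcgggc
Mrpl52: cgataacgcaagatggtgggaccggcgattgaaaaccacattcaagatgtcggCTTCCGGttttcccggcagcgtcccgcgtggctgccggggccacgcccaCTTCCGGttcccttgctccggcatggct
Mrpl14: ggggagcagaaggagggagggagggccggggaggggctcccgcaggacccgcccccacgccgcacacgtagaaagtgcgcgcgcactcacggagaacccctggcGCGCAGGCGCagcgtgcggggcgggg
Mrps7: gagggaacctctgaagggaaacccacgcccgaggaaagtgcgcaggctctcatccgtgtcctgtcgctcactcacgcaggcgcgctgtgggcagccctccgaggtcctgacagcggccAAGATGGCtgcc
Mrps21: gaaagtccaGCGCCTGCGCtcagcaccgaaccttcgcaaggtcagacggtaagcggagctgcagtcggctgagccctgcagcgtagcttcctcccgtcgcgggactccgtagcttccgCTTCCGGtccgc
Mrpl33: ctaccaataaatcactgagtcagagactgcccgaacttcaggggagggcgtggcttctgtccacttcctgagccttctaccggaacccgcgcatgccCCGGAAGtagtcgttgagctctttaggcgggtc
Mrpl51: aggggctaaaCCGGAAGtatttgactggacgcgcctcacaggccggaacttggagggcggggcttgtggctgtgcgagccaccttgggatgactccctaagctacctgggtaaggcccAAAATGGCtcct
Mrpl9: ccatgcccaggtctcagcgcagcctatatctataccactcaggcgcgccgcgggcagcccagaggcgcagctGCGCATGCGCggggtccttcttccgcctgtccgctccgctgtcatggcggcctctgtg
Mrpl28 has no match in the stretch shown. Mrpl52 carries the ETS letters at 2 places on the opposite strand. Mrpl14 and Mrpl9 carry the NRF1 letters, Mrps7 the YY1 letters just after the start, and Mrpl33 the ETS letters across the start. Mrps21 holds an NRF1 and an ETS match, and Mrpl51 an ETS and a YY1 match. Of 24 YY1 matches in all windows of these genes, 16 began after the start, and the median first base of the 24 lay 13.5 bases after it. Any of the NRF1, ETS or YY1 motifs was found for 47 of 69 genes, 13 genes had 2 of the 3 motifs and 0 had all 3. The other 22 genes had none of the 3. Only Mrpl28 lacks a match among the stretches above, so these stretches do not represent the 69 genes.

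Mrps11 (small subunit) and Mrpl46 (large subunit) are head-to-head neighbours on chromosome 7 whose starts lie 42 bases apart, so their windows share 141 identical bases. Their shared start region is shown in the direction of Mrps11 at chr7:78783061-78783160, plus strand, with the bases between and including both starts in capitals.
Mrps11: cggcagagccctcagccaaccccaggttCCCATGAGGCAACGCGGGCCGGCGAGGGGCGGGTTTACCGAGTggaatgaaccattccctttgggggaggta
Mrps11 had 8.93, 9.62 and 9.31 CPM in the Top3b-KO libraries and 11, 10.03 and 7.48 CPM in the WT libraries. CPM stands for the count scaled to a common library size with TMM factors. Mrpl46 had 15.9, 15.7 and 15.7 CPM in Top3b-KO and 16.1, 14.7 and 13.1 CPM in WT. For both genes the genotypes overlapped.

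**Figure D1:**
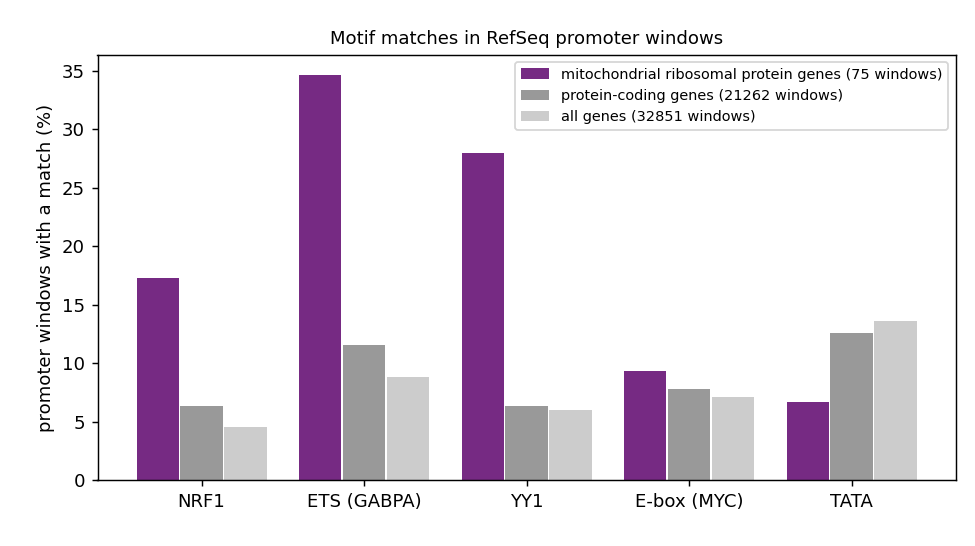
The share of RefSeq promoter windows (percent, vertical axis) that hold each of 5 motifs, for the mitochondrial ribosomal protein genes, protein-coding genes and all genes. The ETS, YY1 and NRF1 bars are 34.7%, 28.0% and 17.3% for the mitochondrial ribosomal protein genes, while the TATA bar is 6.67%, below the 12.6% of coding genes.

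The libraries held 24510381, 25473405 and 9941019 counts in Top3b-KO and 15448261, 15262063 and 15860288 counts in WT. Top3b itself had 1257, 1216 and 491 counts in Top3b-KO and 1472, 1326 and 1449 in WT, that is 49.8 ± 1.66 CPM and 91.0 ± 4.06 CPM (SD, n = 3 each). Its log2 fold change was -0.87, with an adjusted p of 5.78e-06 (edgeR's quasi-likelihood test, Benjamini-Hochberg adjustment over 18716 tested genes), and its RNA was still counted in every Top3b-KO library. Where in the gene the deletion lies is not stated in the labels, so these counts do not show how much of the RNA was intact. Of 12 lists of cell type markers with 76 tested genes, 0 genes passed the adjusted threshold of 0.05. An unadjusted p under 0.05 was found for 5 of the 76, against 5.52% of all tested genes. The 8 B cell markers summed to between 4045 and 4209 CPM in Top3b-KO and between 3811 and 4489 CPM in WT. Of the 6 markers of pancreas and liver, organs next to the spleen, only 1 passed the filter on low counts. That gene had between 2.23 and 3.24 CPM in Top3b-KO and between 2.07 and 4.00 CPM in WT. The other markers of that list are not part of these values.

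All 78 genes were detected in every library, with 23 to 1876 counts each, and all 78 passed the filter on low counts. None of the 78 changed between Top3b-KO and WT by edgeR's quasi-likelihood test, whose smallest adjusted p among them was 0.686, while 2 of all 18716 tested genes passed (0.0107%), with 1 higher (0.00534%) and 1 lower (0.00534%). At an unadjusted p under 0.05 there were 5 of the 78 genes, Mrpl28, Mrpl52, Mrpl14, Mrps7 and Mrpl4, all lower in Top3b-KO. That is 6.41% of the genes, against 5.52% of all tested genes in either direction and 3.69% in the lower direction. In the higher direction there were 0 of 78, against 1.83% of all tested genes. The log2 fold changes of the 78 genes ran between -0.43 for Mrps36 and 0.22 for Mrps18b. Their median was -0.046, against -0.0029 over all tested genes, and 51 of the 78 lay below 0, which is 65.4% against 50.9% of all tested genes. This lean was not particular to the 78 genes. Of the tested cytosolic ribosomal protein genes 67 of 80 lay below 0, and of the nuclear respiratory chain genes 59 of 82. At an unadjusted p under 0.05 there were 8 lower and 0 higher of the 80, and 7 lower and 0 higher of the 82. DESeq2 and limma-voom, run as alternatives, also called 0 of the 78 genes. No test was made of the genes as a list.

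The intervals show how large a difference these libraries leave room for. The 95% interval of the fold change lay within 1.5-fold in either direction for 75 of the 78 genes and within 2-fold for all 78. It lay within 1.2-fold for 20 genes. The 3 genes whose interval passed 1.5-fold were Mrpl14, Mrps12 and Mrps36, all of low count. The point estimate was within 1.2-fold for 73 of 78 genes, and the median standard error of a log2 fold change was 0.106. In these bulk libraries fewer cells of a type and less RNA per cell cannot be told apart.

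**Figure D2:**
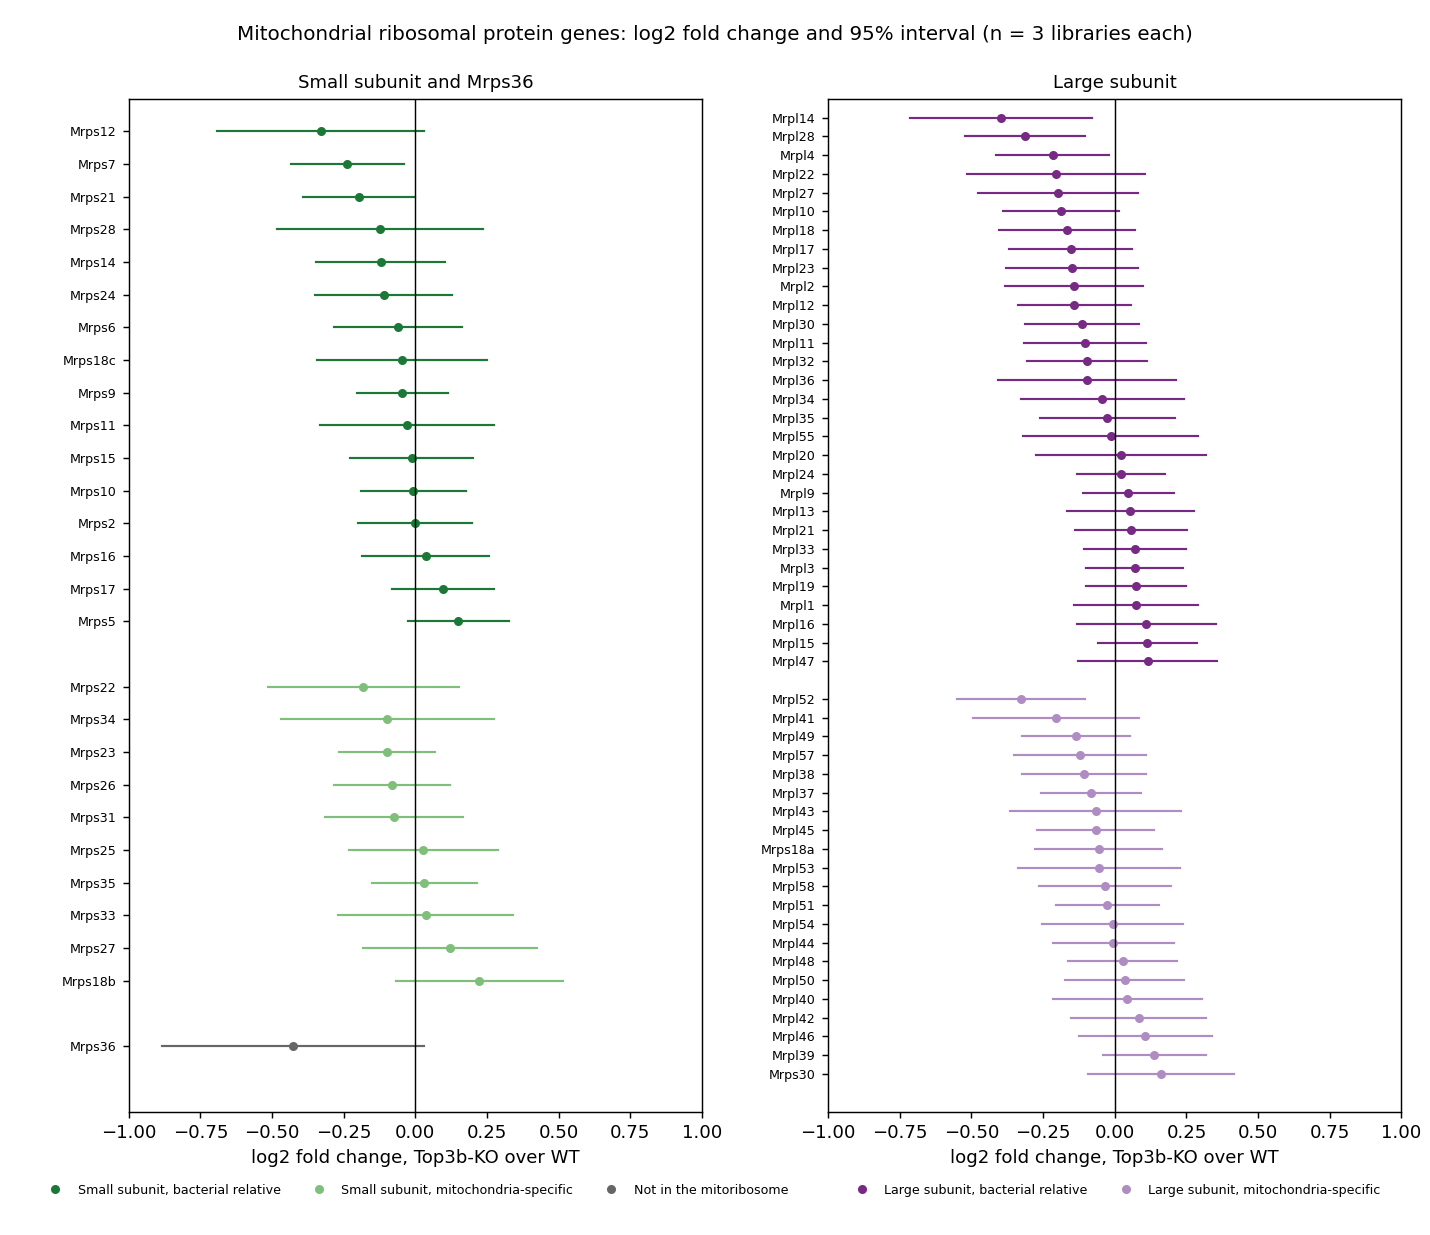
Log2 fold change of each gene, Top3b-KO over WT (horizontal axis, log2 units), with its 95% interval as a line, grouped by subunit and by whether the protein has a bacterial relative (3 libraries per genotype). The points lie between -0.43 and 0.22, and the intervals of 5 genes, Mrpl14, Mrpl28, Mrpl4, Mrps7 and Mrpl52, exclude 0 before adjustment.

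The genes with the smallest p-values were of the lower direction. Mrpl28, a large-subunit protein with a bacterial relative, had 19.0, 18.5 and 16.2 CPM in Top3b-KO and 23.6, 22.1 and 21.6 CPM in WT. Every Top3b-KO library lay below every WT library, with a log2 fold change of -0.31 (SE 0.0995, adjusted p = 0.686). Mrpl52, a large-subunit protein found only in mitochondria, had 17.0, 14.0 and 15.6 CPM in Top3b-KO and 19.0, 19.7 and 19.8 CPM in WT. Its genotypes did not overlap either, at a log2 fold change of -0.33 (SE 0.106, adjusted p = 0.709). Mrpl14, which lies on the face of the large subunit that meets the small one, had 5.28, 4.63 and 5.16 CPM in Top3b-KO and 6.72, 6.16 and 6.91 CPM in WT. Its log2 fold change of -0.40 was the most negative of the 5 (SE 0.151, adjusted p = 0.829), and its genotypes did not overlap.

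Mrps7, a protein of the head of the small subunit that contacts the transfer RNAs and the mRNA, had 23.3, 21.4 and 19.9 CPM in Top3b-KO and 26.2, 25.9 and 24.5 CPM in WT (log2 fold change -0.24, SE 0.0941, adjusted p = 0.856). Mrpl4, which lines the tunnel through which the new peptide leaves, had 19.2 CPM in each Top3b-KO library and 23.1, 22.3 and 21.5 CPM in WT (log2 fold change -0.22, SE 0.0933, adjusted p = 0.876). The Top3b-KO values of Mrpl4 were the closest together of these 5 genes, with an SD of 0.0296 CPM, against 0.816 CPM in WT. Mrps21, a small-subunit protein, came next at 20.03, 19.6 and 19.3 CPM in Top3b-KO and 22.5, 23.5 and 21.6 CPM in WT (log2 fold change -0.20, unadjusted p = 0.0502 by edgeR's quasi-likelihood test). These 6 genes had no value in Top3b-KO that reached the lowest WT value. The 5 genes with an unadjusted p under 0.05 had transcripts of 55.4% to 60.1% GC, against a median of 50.01% over the 78 genes (range 39.6% to 60.6%).

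In the higher direction no gene reached an unadjusted p of 0.05. Mrps5, a protein at the mRNA entry of the small subunit, had 40.6, 39.5 and 35.3 CPM in Top3b-KO and 34.9, 33.6 and 36.0 CPM in WT. Its log2 fold change was 0.15 (SE 0.0836, adjusted p = 0.915), and Top3b-KO replicate 3 lay inside the WT range. Mrpl39, a large-subunit protein related in sequence to threonyl-tRNA synthetase, had 29.1, 31.2 and 29.5 CPM in Top3b-KO and 27.5, 26.6 and 27.6 CPM in WT, without overlap (log2 fold change 0.14, SE 0.0852, adjusted p = 0.915). Mrps18b had 9.83, 8.32 and 9.21 CPM in Top3b-KO and 8.78, 7.01 and 7.60 CPM in WT, with overlap and a log2 fold change of 0.22 (SE 0.139). Mrpl15 had 37.6, 38.7 and 36.4 CPM in Top3b-KO and 32.6, 34.9 and 36.9 CPM in WT, with a log2 fold change of 0.11 (SE 0.0823). Mrps30 had 18.4, 16.0 and 16.3 CPM in Top3b-KO and 12.8, 15 and 17.5 CPM in WT, with a log2 fold change of 0.16 (SE 0.121). For Mrps18b, Mrpl15 and Mrps30 the genotypes overlapped.

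**Figure D3:**
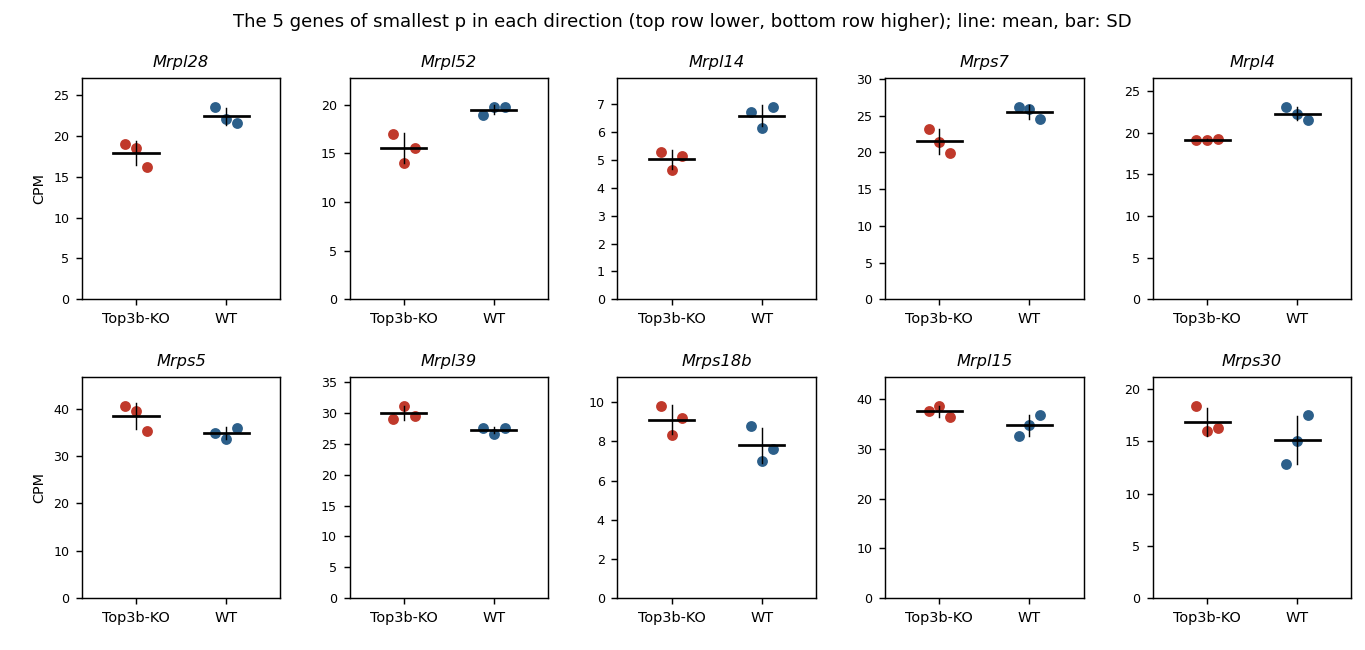
CPM in each library (points; vertical axes start at 0) for the 5 genes of smallest p-value in the lower direction (top row) and in the higher direction (bottom row), Top3b-KO left of WT, with mean and SD over 3 libraries. In the top row no Top3b-KO point reaches a WT point; in the bottom row this separation is seen for Mrpl39 and the other 4 genes overlap.

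The 3 Top3b-KO values lay all above or all below the 3 WT values for 11 of the 78 genes, which is 14.1% against 11% of all tested genes. Of these, 9 genes (11.5%) were lower, against 5.63% of all tested genes, and 2 genes (2.56%) were higher, against 5.39%. This split rested in part on WT replicate 1, without which 11 genes were lower, against 10.6% of all tested genes, and 9 were higher, against 9.90%. With the trend on GC content removed it was 7 lower and 4 higher, against 4.57% and 6.99% of all genes tested. With the trend on length removed it was 8 lower and 5 higher, against 4.91% and 5.60%. Without these corrections, 9 of 82 tested nuclear respiratory chain genes were lower and 1 higher. Of 80 tested cytosolic ribosomal protein genes, 1 was lower and 1 higher. Beside the 6 genes above, the lower ones among the 78 were Mrpl49, Mrpl57 and Mrpl11. Mrpl49 had 24.7 ± 1.55 CPM in Top3b-KO and 27.3 ± 0.929 CPM in WT (SD, n = 3 each). Mrpl57 had 12.7 ± 0.421 CPM in Top3b-KO and 13.9 ± 0.767 CPM in WT. Mrpl11, at the base of the stalk where translation factors bind, had 15.2 ± 0.245 CPM in Top3b-KO and 16.4 ± 0.219 CPM in WT. The higher ones were Mrpl39 and Mrpl21. Mrpl21 had 21.1, 20.7 and 20.4 CPM in Top3b-KO and 20.3, 19.9 and 19.8 CPM in WT, a log2 fold change of 0.057 in which the gap between the genotypes was small.

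By class, the small and large subunits had near-equal medians. The median log2 fold change was -0.046 over the 26 small-subunit genes, 18 of them below 0, and -0.043 over the 51 large-subunit genes, 32 of them below 0. The summed CPM of the large-subunit genes was 2.09 ± 0.0313 times that of the small-subunit genes in Top3b-KO and 2.09 ± 0.0397 times in WT (SD, n = 3 each). Within the small subunit the median was -0.046 for the 16 genes with bacterial relatives and -0.023 for the 10 mitochondria-specific genes. Within the large subunit it was -0.070 for the 30 genes with bacterial relatives and -0.034 for the 21 mitochondria-specific genes. In each of these 4 classes 0 genes passed the adjusted threshold.

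Structural neighbourhoods were described in the same way, with 0 genes past the adjusted threshold in each. The stalk of the large subunit, which recruits translation factors, is represented by Mrpl10, Mrpl11, Mrpl12, Mrpl53 and Mrpl54. All 5 lay below 0, with a median of -0.10 on the log2 scale and a range between -0.19 and -0.0079. Their summed CPM was 82.8, 80.9 and 80.8 in Top3b-KO and 91.0, 89.2 and 85.4 in WT, so that the sums did not overlap. Of the 5 genes Mrpl11 alone was without overlap. How often sums of other lists are without overlap was not tested. The transcripts of the 5 genes had a median GC content of 54.0%, against 50.01% over the 78 genes. The part of base composition in the stalk values was not tested. Mrpl10, the most negative, had 21.4, 20.8 and 25.2 CPM in Top3b-KO and 25.8, 25.6 and 24.7 CPM in WT. The 5 genes of the mRNA path of the small subunit (Mrps5, Mrps7, Mrps11, Mrps12 and Mrps24) had a median of -0.11, with values between -0.33 for Mrps12 and 0.15 for Mrps5.

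The 6 genes around the polypeptide exit (Mrpl17, Mrpl22, Mrpl23, Mrpl24, Mrpl45 and Mrpl47) had a median of -0.11, and 4 lay below 0. Their summed CPM was 151, 149.9 and 150.0 in Top3b-KO and 163, 152 and 147 in WT, which overlapped. The 4 genes near the peptidyl transferase centre, where the peptide bond is made (Mrpl2, Mrpl3, Mrpl16 and Mrpl27), had a median of -0.036, and 2 of the 4 lay below 0. The 7 genes of the central protuberance (Mrpl18, Mrpl38, Mrpl40, Mrpl46, Mrpl48, Mrpl55 and Mrpl58) had a median of -0.015. Their range was between -0.17 and 0.11, on both sides of the median of all tested genes.

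The combined level of the 78 genes was 1547, 1560 and 1505 CPM in Top3b-KO and 1625, 1553 and 1556 CPM in WT. The means were 1537 ± 28.6 CPM and 1578 ± 40.9 CPM (SD, n = 3 each), a ratio of 0.974, and the libraries overlapped. The 78 genes took up 0.154%, 0.155% and 0.150% of the counts in Top3b-KO and 0.163%, 0.155% and 0.156% in WT. The exact binomial 95% intervals of these shares, which cover counting error only, ran between 0.147% and 0.152% for Top3b-KO replicate 3 and between 0.161% and 0.165% for WT replicate 1, the lowest and the highest library. Top3b-KO replicate 3, the library with the fewest counts, was the lowest for 25 of the 78 genes (32.1%), against 17.8% of all tested genes. WT replicate 1 was the highest library for 31 genes (39.7%), against 21.02% of all tested genes. Without WT replicate 1 the median log2 fold change of the 78 genes was -0.0037.

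**Figure D4:**
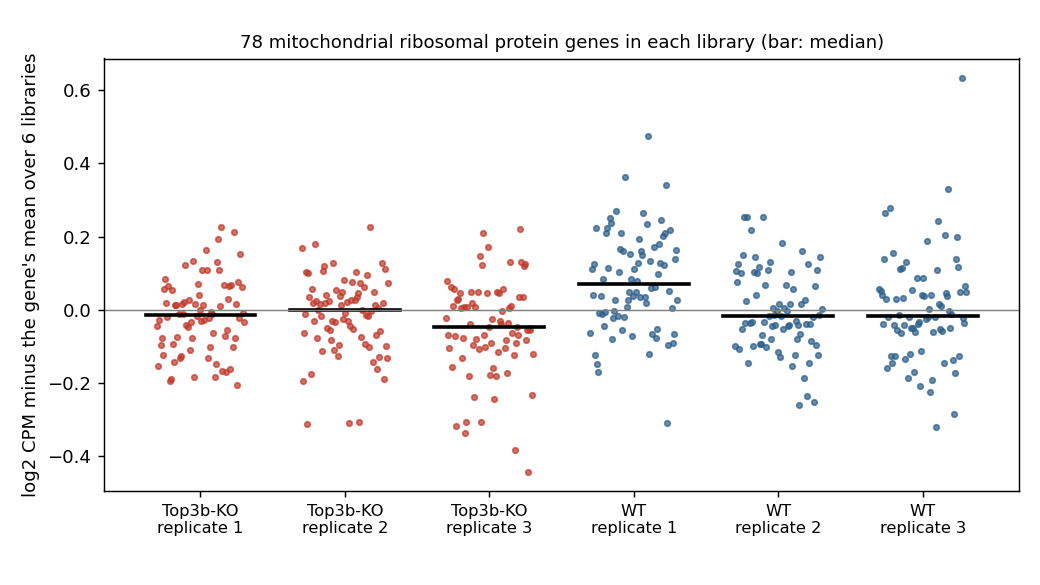
Log2 CPM of each of the 78 genes in each library minus that gene's mean over the 6 libraries (vertical axis), with a bar at the median, Top3b-KO libraries on the left. The median is -0.047 in Top3b-KO replicate 3 and 0.072 in WT replicate 1, and between -0.016 and -0.0010 in the other 4 libraries.

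Several marker sums also stood highest in WT replicate 1. The 10 cycling cell markers summed to 772, 758 and 649 CPM in Top3b-KO and 806, 719 and 711 CPM in WT, so that the highest and the lowest library were the same as for the mitochondrial ribosomal protein genes. The 6 red pulp macrophage markers summed to 450.0, 429.5 and 383.6 CPM in Top3b-KO and 502.1, 437.8 and 450.1 CPM in WT. The 6 dendritic cell markers summed to 169, 175 and 155 CPM in Top3b-KO and 198, 189 and 177 CPM in WT. In the macrophage and dendritic cell lists, too, WT replicate 1 was the highest library and Top3b-KO replicate 3 the lowest. The 6 NK cell markers summed to 216, 198 and 194 CPM in Top3b-KO and 242, 192 and 221 CPM in WT. The dendritic cell sums did not overlap between the genotypes, and the NK cell sums did. The 8 B cell markers were lowest in WT replicate 1, at 3811 CPM. The 12 erythroid markers were all below 0, with a median log2 fold change of -0.35, and summed to 1374, 972 and 1061 CPM in Top3b-KO and 1168, 1954 and 1355 CPM in WT. The 8 T cell markers were all above 0, with a median of 0.088, and summed to 1599, 1558 and 1537 CPM in Top3b-KO and 1602, 1441 and 1366 CPM in WT. Both of these sums overlapped, and 0 genes of either list passed the adjusted threshold. The part of cell composition in the level of the mitochondrial ribosomal protein genes was not tested.

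Base composition and length moved with the fold changes. Across the 78 genes the log2 fold change correlated with transcript GC content at r = -0.375 and with log2 transcript length at r = 0.389. Across the 12354 genes at or above the lowest mean level of the 78, the values were -0.374 and 0.122. These are descriptions over genes that share the same 6 libraries. With each library's trend on GC content removed, the median of the 78 genes was -0.0088, against 0.011 over all genes tested, and with the trend on length removed it was -0.011, against 0.0067. Mrpl28 then had a log2 fold change of -0.21 and Mrpl14 of -0.29 under the GC correction, and 2 of the 78 genes (2.56%) had an unadjusted p under 0.05 in place of 5, against 5.50% of all genes tested under that correction. The part of base composition in the remaining differences was not tested.

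The genes differed far more from each other in level than between genotypes. In CPM, which grows with transcript length and so does not order the genes by level, Mrpl24 (near the exit tunnel) had 74.1 ± 0.230 CPM in Top3b-KO and 72.9 ± 5.77 CPM in WT (SD, n = 3 each). Mrps9, a small-subunit protein, had 50.6 ± 3.37 CPM in Top3b-KO and 52.4 ± 0.813 CPM in WT. Mrpl9 had 50.6 ± 2.53 CPM in Top3b-KO and 49.1 ± 1.73 CPM in WT. Mrpl37, a mitochondria-specific large-subunit protein, had 38.9 ± 1.21 CPM in Top3b-KO and 41.1 ± 3.25 CPM in WT. Mrps23, a mitochondria-specific small-subunit protein, had 37.1 ± 1.13 CPM in Top3b-KO and 39.7 ± 1.92 CPM in WT. Few counts were found for Mrps36 at a mean of 3.25 CPM over the 6 libraries, Mrps34 at 4.41 CPM and Mrps28 at 5.50 CPM.

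Levels of different genes were compared per kilobase of the longest GENCODE basic coding transcript. On this scale Mrpl33, a short protein of the large subunit, led with 62.7 ± 0.777 CPM per kilobase in Top3b-KO and 59.7 ± 2.49 in WT. Mrpl24 followed at 55.3 ± 0.172 CPM per kilobase in Top3b-KO and 54.5 ± 4.31 in WT, and Mrps21 at 40.3 ± 0.726 in Top3b-KO and 46.2 ± 1.97 in WT. Mrpl52 had 33.6 ± 3.26 CPM per kilobase in Top3b-KO and 42.1 ± 0.970 in WT, and Mrps9 35.7 ± 2.38 in Top3b-KO and 36.9 ± 0.574 in WT, so that their order was the other way round in Top3b-KO, where they lay within their spread. The lowest were Mrps25 at a mean of 2.21 CPM per kilobase, Mrpl17 at 3.19 and Mrpl35 at 3.55. The highest level was 27.7-fold the lowest. The median of the 78 genes was 10.1 CPM per kilobase, against 6.07 over the 17377 tested genes with a length. For genes of cytosolic ribosomal proteins the median was 449 CPM per kilobase and for nuclear respiratory chain genes 35.8, with median log2 fold changes of -0.066 and -0.045.

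The choice of transcript matters for some genes. With the shortest coding transcript in place of the longest, Mrpl33, Mrpl24 and Mrps21 stayed among the first 5 and 7 of the first 10 genes were shared. Mrps23 then came first at 116 CPM per kilobase, against 27.4 by its longest transcript, and Mrpl17 had 22.6 against 3.19. Only 1 coding transcript is annotated for 45 of the 78 genes, including Mrpl33 and Mrps9. The order of the genes was nearly the same in both genotypes, with a Spearman correlation of 0.989 over the 78 genes and the same 10 genes on top in Top3b-KO and in WT. The largest shift of a gene was 14 ranks.

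**Figure D5:**
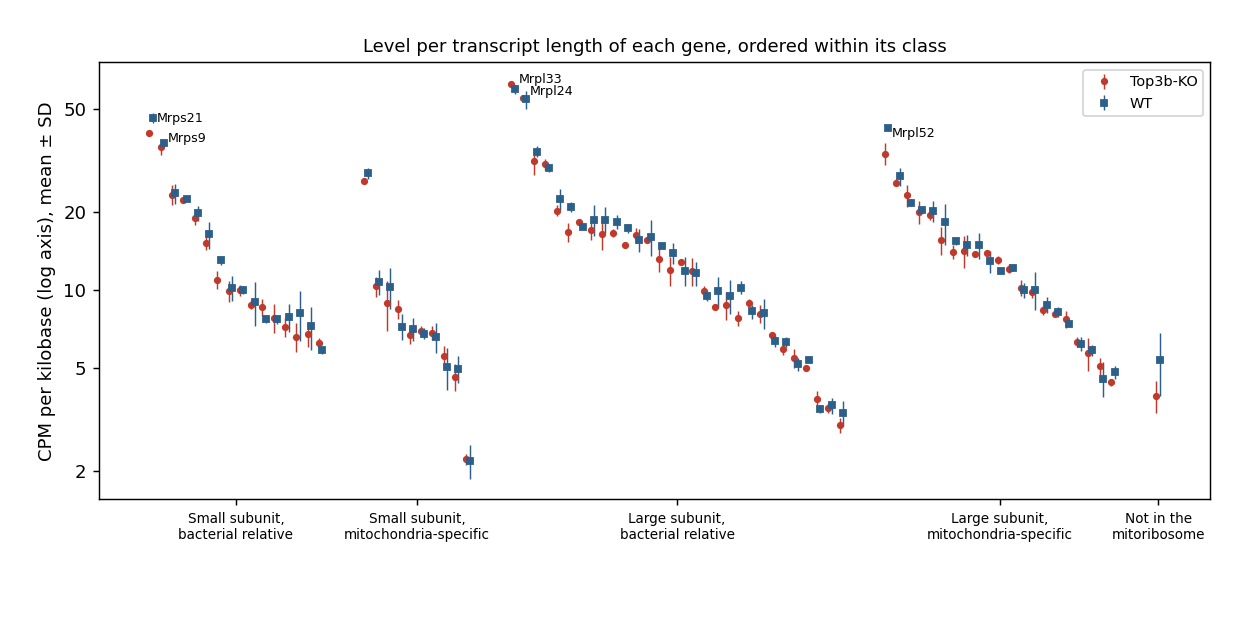
Level of each gene in CPM per kilobase of its longest coding transcript (vertical axis, logarithmic; mean and SD over 3 libraries), Top3b-KO as circles left of WT as squares, ordered within each class. Mrpl33 and Mrpl24 are highest at a mean of 61.2 and 54.9 CPM per kilobase over the 6 libraries, and Mrps25 is lowest at 2.21.

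The genes also differed in how steady they were over the 6 libraries. The SD of log2 CPM had a median of 0.121 over the 78 genes, against 0.138 over the 9620 genes in the same range of mean CPM. Mrps10, a small-subunit protein, was the steadiest with an SD of 0.0281. It had 24.7, 25.5 and 24.2 CPM in Top3b-KO and 25.2, 25.1 and 24.5 CPM in WT. Mrpl21 (SD 0.0362) and Mrpl51 (SD 0.0425) followed. Mrpl51 had 28.3, 27.4 and 27.5 CPM in Top3b-KO and 29.6, 27.7 and 27.5 CPM in WT.

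The least steady genes had fewer counts. Mrps36, the dehydrogenase component, had 3.11, 2.77 and 2.33 CPM in Top3b-KO and 2.97, 3.41 and 4.90 CPM in WT. WT replicate 3 was its highest library and the genotypes overlapped, with a log2 fold change of -0.43 (SE 0.218, adjusted p = 0.915). Mrps22 had 10.1, 13.3 and 8.70 CPM in Top3b-KO and 12.8, 9.96 and 14.3 CPM in WT, so that libraries of each genotype were high and low. Mrps12, which forms part of the decoding site, had 5.65, 5.19 and 6.68 CPM in Top3b-KO and 8.91, 5.77 and 6.91 CPM in WT. Its highest value came from WT replicate 1, and its log2 fold change was -0.33 (SE 0.172, adjusted p = 0.915).

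The 3 paralogs of the bacterial S18 protein, which occupy separate places in the mitoribosome, were all measured well above the floor of 3 counts. Mrps18a, in the large subunit, had 17.2 ± 0.688 CPM in Top3b-KO and 17.9 ± 1.63 CPM in WT (SD, n = 3 each). Mrps18c, in the place of the bacterial protein, had 8.14 ± 0.743 CPM in Top3b-KO and 8.39 ± 0.951 CPM in WT. Mrps18b, also in the small subunit, had 9.12 ± 0.760 CPM in Top3b-KO and 7.80 ± 0.9 CPM in WT. None of the 3 passed the adjusted threshold by edgeR's quasi-likelihood test.

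In the genome the 78 genes lie on 17 chromosomes, with 11 on chromosome 11, 8 on chromosome 17 and 0 on the X chromosome. Chromosome 16, which carries Top3b, holds Mrpl39, Mrps6 and Mrpl40. Mrpl40, the nearest to Top3b at 1.98 Mb on GRCm38, had 9.46, 9.47 and 10.7 CPM in Top3b-KO and 9.56, 9.57 and 9.36 CPM in WT, with a log2 fold change of 0.044 (SE 0.124, adjusted p = 0.98). That sign rested on Top3b-KO replicate 3, without which the value was -0.0043. Mrps6 had 17.1, 15.3 and 15.8 CPM in Top3b-KO and 18.1, 16.3 and 16.0 CPM in WT, which overlapped. In the GENCODE annotation 36 of the 78 genes overlap a gene on the opposite strand and 13 a gene on the same strand. How the counting used strand is not stated in the labels, so reads of such pairs cannot be told apart. Among the genes of smallest p-value this applies to Mrpl14, which overlaps Tmem63b, and to Mrps7, which overlaps Gga3 and Mif4gd. For 18 of the 78 genes a coding gene that does not reach past the GENCODE start begins within 1000 bases upstream and runs the other way, as Hira does for Mrpl40 and Sars2 for Mrps12. Mrps11 and Mrpl46 overlap each other in GENCODE and are counted among the 36 genes instead.

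Each promoter motif group had a median log2 fold change below 0. The median log2 fold change was -0.056 over the 26 genes with ETS letters and -0.031 over the 43 without them. It was -0.056 over the 21 genes with YY1 letters and -0.046 over the 48 without. For NRF1 it was -0.097 over the 13 genes with the letters and -0.032 over the 56 without. The median level was 9.68 CPM per kilobase with ETS letters and 12 without, 9.95 with YY1 letters and 10.3 without, and 12.2 with NRF1 letters and 10.1 without. These values are descriptions with no test.

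The genes that work with the mitoribosome were followed in 8 lists outside the 78 genes, with 120 tested genes. Of these 120 genes, 0 passed the adjusted threshold in either direction. At an unadjusted p under 0.05 there were 3 lower and 0 higher genes, against 3.69% and 1.83% of all tested genes. The 5 mitoribosomal proteins with other names had a median log2 fold change of -0.017. Dap3, a small-subunit GTPase also known from cell death, had 71.6 ± 1.21 CPM in Top3b-KO and 72.6 ± 4.47 CPM in WT (SD, n = 3 each). The 28 assembly factors had a median of -0.024. Among them Ddx28, an RNA helicase of large-subunit assembly, had 8.89, 10.1 and 9.41 CPM in Top3b-KO and 10.8, 12 and 11.1 CPM in WT, without overlap (log2 fold change -0.25, SE 0.122, adjusted p = 0.9). The 15 tested translation factors had a median of -0.0053. Mtfmt, which formylates the initiator methionyl-tRNA, had 28.4 ± 2.11 CPM in Top3b-KO and 31.3 ± 1.35 CPM in WT.

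The list of mitochondrial aminoacyl-tRNA synthetases also holds the tRNA amidotransferase genes Qrsl1, Gatb and Gatc. Its 22 tested genes had a median of 0.011. Lars2, which charges the leucine tRNA, had 30.02, 55.9 and 85.6 CPM in Top3b-KO and 29.6, 34.4 and 36.6 CPM in WT. It overlapped between the genotypes, with a log2 fold change of 0.73 (SE 0.437, adjusted p = 0.915). The 12 genes of mitochondrial DNA transcription and replication had a median of -0.016 and the 17 genes of RNA processing 0.012. Mto1, which modifies mitochondrial tRNAs, had 39.0, 38.6 and 40.6 CPM in Top3b-KO and 34.6, 32.3 and 37.9 CPM in WT, without overlap (log2 fold change 0.17, SE 0.0841, adjusted p = 0.914). The 10 regulators of mitochondrial biogenesis had a median of -0.023. Gabpa, the DNA-binding subunit of the factor whose ETS letters were searched above, had 88.0, 87.6 and 86.1 CPM in Top3b-KO and 74.2, 75.3 and 89.1 CPM in WT, with overlap.

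Of 15 mitochondrially encoded rRNA and protein genes, 12 were tested, with a median of 0.051. The 3 genes with an unadjusted p under 0.05 were mt-Co2, mt-Atp6 and mt-Co3, all with few counts. mt-Co2, a cytochrome oxidase subunit, had 75, 86 and 27 counts in Top3b-KO and 99, 111 and 91 counts in WT. Its log2 fold change was -1.05 (SE 0.173, adjusted p = 0.0612 by edgeR's quasi-likelihood test), and it passed by DESeq2 and under the replicate block. Per length, mt-Co2, mt-Co3 and mt-Atp6 had a mean of 6.97, 3.50 and 4.47 CPM per kilobase over the 6 libraries, against 2291 for mt-Co1. How reads that match several places were counted is not known, so what these few counts measure is uncertain. mt-Co1, a subunit of the same complex, had 86302, 97205 and 34161 counts in Top3b-KO and 48126, 52066 and 61676 counts in WT. The large rRNA of the mitoribosome, mt-Rnr2, had 67172, 79769 and 25514 counts in Top3b-KO and 35794, 37719 and 55228 counts in WT, with a log2 fold change of 0.041. The small rRNA, mt-Rnr1, had 205 ± 66.3 CPM in Top3b-KO and 175 ± 44.2 CPM in WT. The libraries were depleted of rRNA, and the degree of depletion in each library is not stated in the labels.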

How the data were processed

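Expected counts per gene symbol, nearly all whole, were deposited by the authors for 6 libraries of rRNA-depleted total RNA. Reads had been aligned with STAR to mm39, per the submitters' processing notes. No source used here gives the counter or its settings, including how it treated strand and reads with several matches. The labels of every library describe a pair of library kits and sequencers and different read lengths. Which preparation a library had is unknown, so a difference in kit cannot be told apart from genotype. Values were rounded (72 symbols were fractional, 0 of them among the 78 genes), and 22655 of 56413 symbols had no count. edgeR 4.0.16 in R 4.3.3 was run with TMM factors, filterByExpr and a two-sided quasi-likelihood F test on genotype, with Benjamini-Hochberg adjustment over 18716 genes at 0.05, after it was tested on simulated data. A floor of 3 counts equals 0.119 to 0.303 CPM, for counting error only. Lengths, GC content and neighbours came from GENCODE M21, which matched all 78 genes.

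The genes, lists and tests were chosen with earlier results of these data known. Genes were named by rule (smallest p in each direction, most and least abundant or steady, no overlap, chromosome 16, S18 paralogs, structural lists, and some of the pathway genes of smallest p). Mrpl49, Mrpl57, Dap3, mt-Co3, mt-Atp6 and the rRNA genes were named after their values were seen, and the shortest-transcript scale, the comparison with cytosolic ribosomal and respiratory chain genes and the motifs were chosen then too. Alternatives changed scaling, filter, test (DESeq2 1.42.0, limma 3.58.1), length and GC trends, a replicate block and the libraries included.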

Additional observations from a re-analysis of the deposited data

How the results depend on the processing

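Under all 16 alternatives 0 of the 78 genes passed, and their smallest adjusted p ran between 0.169 (without WT replicate 3) and 1.0. The number of genes called among all tested, 2 as reported, was 6 by DESeq2, 44 where every gene with a count was kept, 1 by limma-voom, 41 under the replicate block, 1 by edgeR without robust dispersion and 4 after the GC correction. Leaving out libraries gave between 1 and 32 (32 without WT replicate 3, 9 without Top3b-KO replicate 1). The median log2 fold change of the 78 genes ran between -0.066 and -0.0037, and was -0.0037 without WT replicate 1. Genes without overlap, 11 as reported, numbered between 17 and 27 (21.8% to 34.6% of the 78) when 1 library was left out, against 18.2% to 31.0% of all tested genes, since fewer libraries overlap less often. Without WT replicate 1 they were 11 lower and 9 higher. The 5 genes with an unadjusted p under 0.05 became 2 (2.56%) after the GC correction or without Top3b-KO replicate 2, against 5.50% and 3.60% of all tested genes, and 9 (11.5%) without WT replicate 3, against 13.2%. In the pathway lists the 2 genes mt-Co2 and mt-Atp6 passed under the replicate block and where every gene with a count was kept. The 1 gene mt-Co2 passed by DESeq2, after the GC correction and without WT replicate 3, and leaving out libraries gave between 0 and 1. Mrpl40 reversed to -0.0043 without Top3b-KO replicate 3, and its values with 1 library left out reached up to 0.080. The causes were not tested. Same-numbered libraries correlated at 0.143, -0.0051 and 0.015 in their deviations over 18709 genes. Differently numbered ones ran between -0.079 and 0.068. The labels do not say whether the numbers pair libraries, and these correlations cannot decide it. The replicate block called 0 of the 78 genes. Top3b kept its call under every alternative, between -0.90 and -0.82. Top3b-KO replicate 3 had the fewest counts, and the part of depth in its values was not tested.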
